A study of Mus musculus with 12 samples.

Results

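Cyth4 encodes cytohesin 4, a guanine nucleotide exchange factor of ARF GTPases that is found mainly in blood cells. The gene is described here over its exon bins, the non-overlapping parts into which a gene model is divided. It was chosen because its reads rose with the number of added reads in both backgrounds of the study, over different bins. Its bins were taken by the gene name and the shared model name in the tables, and repeated rows were dropped. This left 19 bins, E001 to E019 in 5′ to 3′ order, of 923 bins in 58 gene models. The model joins 6 transcripts, and each of its bins stood 4 times in every table, with identical values.

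Cytohesins load ARF proteins with GTP through a catalytic Sec7 domain, and a pleckstrin homology domain near the carboxy terminus binds phosphoinositides and brings the protein to membranes. Active ARF proteins control vesicle budding, the actin cytoskeleton and integrin-mediated adhesion. In the coding sequence the Sec7 domain precedes the pleckstrin homology domain, so bins along the gene stand for different parts of the protein.

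The samples were mixed on a computer from reads of D1, a mouse cell line. Each of the 12 samples had a background of TruSeq reads, from an unstranded poly(A)-selected library of 1000 ng or 100 ng of total RNA, and 5 replicates. To it were added reads of listed transcripts drawn from 20M, 40M or 80M reads (M, 1e6), called source reads, of a TruSeq library of 100 ng or a NuGENv2 library of 2 ng. All samples also received synthetic reads of other transcripts, and ERCC control RNA was added to the TruSeq libraries. Without strand, reads of a gene on the other strand cannot be told apart from those of Cyth4. The list of the 1000 ng background names the Cyth4 transcript uc007wps.1 for both kits, and that of the 100 ng background names no Cyth4 transcript. The labels do not say whether replicates came from separate cultures, so the spread between them may be technical. The identity of D1 could not be checked, since 0 of 20 cell type markers and 0 of 53 genes of the ARF pathway were in the tables.

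Read counts were recovered from the deposited coverage values. Reads in all bins spanned 347941 to 593002 per replicate on the 1000 ng background and 237258 to 492142 on the 100 ng background without its 20M TruSeq sample. This 100 ng sample stood apart, with 1101800 to 1281560 reads in bins. Between any 2 tables of a background, a bin's reads differed by the same number in all 5 replicates, for 923 of 923 bins. Gains between tables therefore have no spread between replicates, and they are given as values with no test. They are also what the gene was chosen on, so differences between the backgrounds in bins that gained reads, and in the total, are descriptions of the added reads and are given with no p. Overlap between the backgrounds is given for Cyth4 only. No share over all 923 bins stands beside it, so it does not show whether a lack of overlap was unusual.

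On the NCBIM37 (mm9) genome with GENCODE vM1, Cyth4 lies on the plus strand at chr15:78427477-78452449, with 13 exons and 1224 coding bases in transcript Cyth4-203. The lengths that made the deposited values whole matched its 13 exons in order, once 1 base was added to each. Bins E001, E002, E003, E005, E006, E007 and E008 were exons 1 to 7, E012 was exon 8, and E014, E015, E017, E018 and E019 were exons 9 to 13. The other 6 bins fell in introns of this transcript. Bins E009, E010 and E011, of 1454, 93 and 27 bases, filled the 1574 bases of intron 7 without a gap. Bins E004 in intron 3, E013 in intron 8 and E016 in intron 10 were shorter than their introns and could not be placed by length. The last bin, E019, held 1525 bases, of which 67 were coding.

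**Figure D1:**
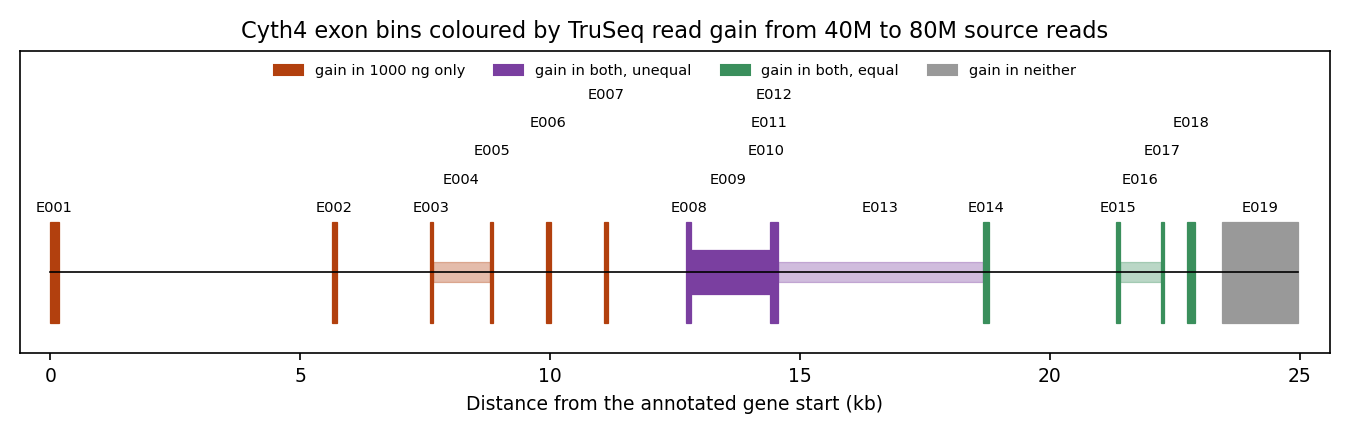
Map of the 19 Cyth4 bins by distance from the annotated gene start in kb, coloured by the TruSeq reads gained from 40M to 80M source reads. Tall boxes are exons, the middle-height box joins the 3 placed intron bins, and thin pale boxes mark the introns that hold the 3 bins without a position; the 7 bins with a gain on the 1000 ng background only lie at the 5′ end and the 1 bin with no gain at the 3′ end.

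The bins divided into 4 stretches by their gains of TruSeq reads from 40M to 80M. The 7 bins E001 to E007, with 479 coding bases, gained reads on the 1000 ng background only. The 6 bins E008 to E013, with 262 coding bases, gained unequal numbers in the 2 backgrounds. The 5 bins E014 to E018, with 416 coding bases, gained the same number in both, and E019 gained none. The sequences of 5 bins are shown for the places where this pattern turns: the last exon of the first stretch, the first exon and the short intron bin of the second, and the exons with the most reads gained in the third. They were read from the NCBIM37 plus strand and are given 5′ to 3′.
E007, exon 6, chr15:78438556-78438636: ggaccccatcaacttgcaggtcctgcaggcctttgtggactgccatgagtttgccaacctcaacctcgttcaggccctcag
E008, exon 7, chr15:78440192-78440304: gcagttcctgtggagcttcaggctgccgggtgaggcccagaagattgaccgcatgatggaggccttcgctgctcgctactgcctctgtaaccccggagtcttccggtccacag
E011, 3′ end of intron 7, chr15:78441852-78441878: aactgtgaccagtgccaggtcccacag
E015, exon 10, chr15:78448806-78448882: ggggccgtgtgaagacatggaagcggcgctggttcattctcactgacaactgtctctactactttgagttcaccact
E017, exon 11, chr15:78449692-78449763: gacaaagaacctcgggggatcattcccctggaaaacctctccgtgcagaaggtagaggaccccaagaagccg
The GC content of these bins was 58.0% in E007, 61.9% in E008, 59.3% in E011, 51.9% in E015 and 56.9% in E017.

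The borders of the intron bins were read in the same way, since they show where the gene model joins or splits exons. Capitals mark the first 2 bases after E008 and the last 2 bases before each other border.
E008 into E009, chr15:78440290-78440319: tcttccggtccacagGTgacaagctcctca
E009 into E010, chr15:78441744-78441773: cagcagaggtttgCAagagtaggaggggag
E010 into E011, chr15:78441837-78441866: aataacctgggccAGaactgtgaccagtgc
E011 into E012, chr15:78441852-78441893: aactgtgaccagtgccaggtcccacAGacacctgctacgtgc
A GT dinucleotide follows E008, as at the start of an intron, and AG precedes both E011 and E012, as at the end of one, while the bases before E010 are CA. An exon that began at E011 in place of E012 would be longer by 27 bases. Joined to E008 in the annotated reading frame, these bases would hold the stop codon TGA. These letters do not show that a site was used.

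The level of Cyth4 in the background libraries themselves was compared in E019. It was the 1 bin that gained no reads of either kit between the tables, the 100 ng sample that stood apart left out. E019 carries the stop codon and the untranslated 3′ end. In those tables it held 4077, 7554, 3323, 4111 and 3135 reads in the 1000 ng replicates and 2622, 2342, 6261, 5005 and 2262 reads in the 100 ng replicates. Reads per kilobase of bin and per 1e6 reads of a scaled library, called FPKM equivalents here, take account of the unequal library sizes. On that scale, in the table with 20M NuGENv2 reads, E019 stood at 98.6, 103, 88.8, 97.1 and 92.7 in the 1000 ng replicates and at 97.4, 96.5, 115, 107 and 92.6 in the 100 ng replicates. The groups overlapped, with means of 96.0 ± 5.40 on the 1000 ng background and 102 ± 9.05 on the 100 ng background (SD, n = 5 each). The difference of -0.08 in log2(FPKM equivalent + 1) was not past the threshold (two-sided exact permutation test over 252 arrangements, p = 0.294, smallest possible 0.00794). In the limma fit its SE was 0.085 and its adjusted p 0.739 over the 922 bins tested. Its sign depends on the scaling, since it was 0.11 on the values as deposited and 0.03 after quantile normalization.

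In the table with the fewest Cyth4 reads, the internal exons of the gene lay within a narrow range of levels per length and its intron bins did not. With 20M NuGENv2 reads E002, E003, E005 to E008, E012, E014, E015, E017 and E018 averaged 160 to 275 FPKM equivalents on the 1000 ng background and 159 to 278 on the 100 ng background. Among the intron bins, E013 averaged 1.06 and 1.09 in the 1000 ng and 100 ng backgrounds, E004 4.63 and 4.40, E009 6.98 and 7.10, E016 14.8 and 16.6, and E010 19.3 and 19.9. E011 stood apart from them, with 183 ± 21.5 on the 1000 ng background and 174 ± 10.6 on the 100 ng background (SD, n = 5 each), a level close to that of E012 beside it. E011 has 27 bases, and the sources used here do not say how a read over 2 bins was counted, so its level per length is less certain than that of a longer bin.

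In the first stretch, exons 1 to 6 with part of intron 3, added reads appeared on the 1000 ng background only. From 40M to 80M TruSeq reads E004 gained 93 reads, E006 42, E007 16, E001 13, E002 12, E005 10 and E003 9. In the 100 ng background the 7 bins gained 0 reads with either kit, the sample that stood apart left out, and the TruSeq and NuGENv2 tables held identical reads there at 40M and at 80M. NuGENv2 reads gave larger gains in the 6 exons of this stretch over the same step. From 40M to 80M NuGENv2 reads E006 gained 147 reads on the 1000 ng background, E007 132, E004 84, E003 58, E002 55, E005 52 and E001 36. From 20M to 80M these gains were 190, 164, 90, 65, 57, 62 and 39 reads in the same order of bins.

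The intron bin E004 gained the most relative to its level in this stretch with TruSeq reads. At 80M TruSeq it held 248, 370, 249, 282 and 240 reads in the 1000 ng replicates and 74, 47, 212, 136 and 67 in the 100 ng replicates. On the scaled values these were 10.02, 8.84, 11.04, 11.2 and 11.7 FPKM equivalents on the 1000 ng background and 4.35, 3.00, 6.43, 4.77 and 4.21 on the 100 ng background. The groups did not overlap, and the log2 fold change was 1.08, between 0.20 (on the values as deposited) and 1.23 under the alternatives run. On the values as deposited the 1 added before the logarithm is set against reads per base. This understates the fold change of a bin with low coverage such as E004. With 80M NuGENv2 reads E004 averaged 8.27 ± 0.774 on the 1000 ng background and 4.52 ± 1.20 on the 100 ng background (SD, n = 5 each). With 20M NuGENv2 reads the values overlapped.

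E007, exon 6 and the last bin of the stretch, differed most between kits among these 7 bins. In the 1000 ng replicates it held 423, 870, 404, 435 and 355 reads with 80M TruSeq reads, and with 80M NuGENv2 reads 601, 1048, 582, 613 and 533. The TruSeq table thus held 178 reads fewer in every replicate. In the 100 ng background both tables held 262, 262, 648, 542 and 243 reads. The scaled means with 80M NuGENv2 reads were 297 ± 11 FPKM equivalents on the 1000 ng background and 211 ± 23.0 on the 100 ng background (SD, n = 5 each), without overlap, a log2 fold change of 0.50 that lay between 0.46 and 0.62 under the alternatives run. At 80M TruSeq E007 averaged 223 ± 19.1 on the 1000 ng background and 212 ± 25.1 on the 100 ng background, and the groups overlapped.

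**Figure D2:**
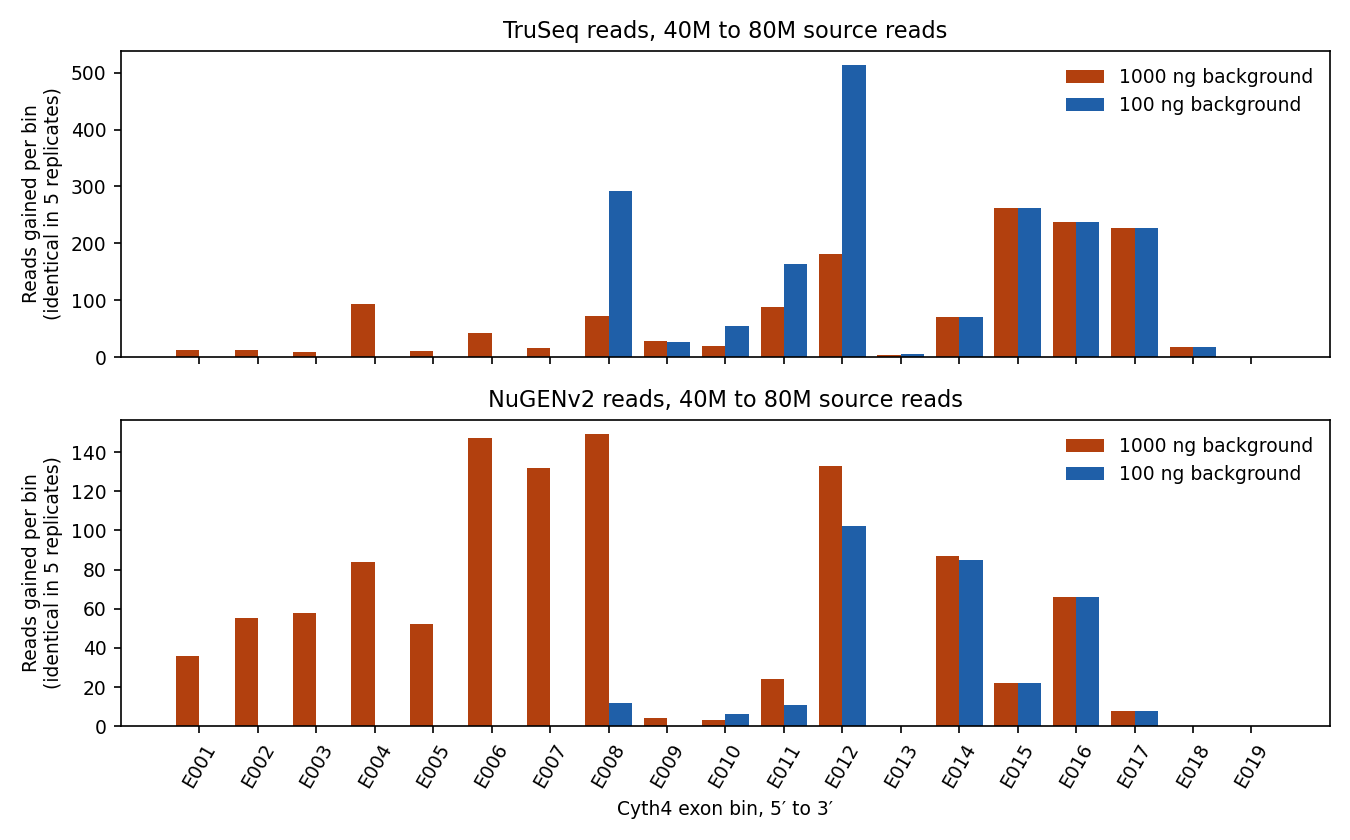
Reads gained per Cyth4 bin (y axis, reads, identical in the 5 replicates) from 40M to 80M source reads of TruSeq (upper panel) and NuGENv2 (lower panel), in the 1000 ng and the 100 ng background, with different y ranges. E001 to E007 have bars for the 1000 ng background only, and the pair of TruSeq bars has equal height from E014 to E018.

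In the second stretch, from exon 7 to the intron after exon 8, both backgrounds gained reads, and E008, E011 and E012 gained more on the 100 ng background with TruSeq and more on the 1000 ng background with NuGENv2. From 40M to 80M TruSeq reads E008 gained 72 reads on the 1000 ng background and 292 on the 100 ng background. E012 gained 182 and 513 in the 1000 ng and 100 ng backgrounds, E011 88 and 164, E010 20 and 55, E009 28 and 26, and E013 4 and 6. Over the 6 bins this was 394 reads on the 1000 ng background and 1056 on the 100 ng background. From 20M to 80M NuGENv2 reads the larger gains were on the 1000 ng background, with 377 reads over the 6 bins against 157 on the 100 ng background. E008 gained 181 NuGENv2 reads on the 1000 ng background and 15 on the 100 ng background, E012 161 and 122, and E011 28 and 14. E010 gained 3 and 6, E009 4 and 0, and E013 gained none.

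E008 held 682, 1256, 662, 694 and 581 reads in the 1000 ng replicates with 80M TruSeq reads and 939, 934, 1428, 1268 and 902 in the 100 ng replicates. Scaled, these were 243, 264, 258, 243 and 249 FPKM equivalents on the 1000 ng background and 486, 524, 381, 391 and 498 on the 100 ng background. The groups did not overlap, and the log2 fold change was -0.85, between -0.93 and -0.52 under the alternatives run. With 80M NuGENv2 reads the same exon had the opposite direction. It then held 777, 1351, 757, 789 and 676 reads in the 1000 ng replicates and 370, 365, 859, 699 and 333 in the 100 ng replicates, or 274 ± 9.46 and 204 ± 16.4 FPKM equivalents (SD, n = 5 each). These groups did not overlap either, with a log2 fold change of 0.42, between 0.39 and 0.55 under the alternatives run.

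E012, exon 8, held 1075, 1873, 1084, 1127 and 976 reads in the 1000 ng replicates with 80M TruSeq reads and 1552, 1483, 2203, 1968 and 1497 in the 100 ng replicates. The scaled means were 304 ± 13.1 FPKM equivalents on the 1000 ng background and 554 ± 93.0 on the 100 ng background (SD, n = 5 each), without overlap. With 80M NuGENv2 reads they were 245 ± 10.4 on the 1000 ng background and 244 ± 6.79 on the 100 ng background, with overlap. The same number of reads was added to replicates whose libraries differ in size, and the SD of the 100 ng background was wider with TruSeq reads.

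E011, the 27 bases before exon 8, had the largest TruSeq gain per length on the 100 ng background, 6074 reads per kilobase from 40M to 80M, against 3259 on the 1000 ng background. It held 295, 454, 294, 303 and 286 reads in the 1000 ng replicates with 80M TruSeq reads and 439, 439, 538, 512 and 440 in the 100 ng replicates. The scaled means were 468 ± 44.1 FPKM equivalents on the 1000 ng background and 877 ± 211 on the 100 ng background (SD, n = 5 each), without overlap. In that table the level of E011 per length was thus above that of the adjoining E012 in both backgrounds. E010, the 93 bases before E011, averaged 42.1 ± 2.54 on the 1000 ng background and 91.4 ± 21.2 on the 100 ng background, also without overlap. E009, the rest of intron 7, averaged 8.92 ± 0.548 and 9.26 ± 0.645, with overlap, and E013 1.41 ± 0.138 and 1.62 ± 0.244, with overlap (1000 ng and 100 ng backgrounds, SD, n = 5 each).

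**Figure D3:**
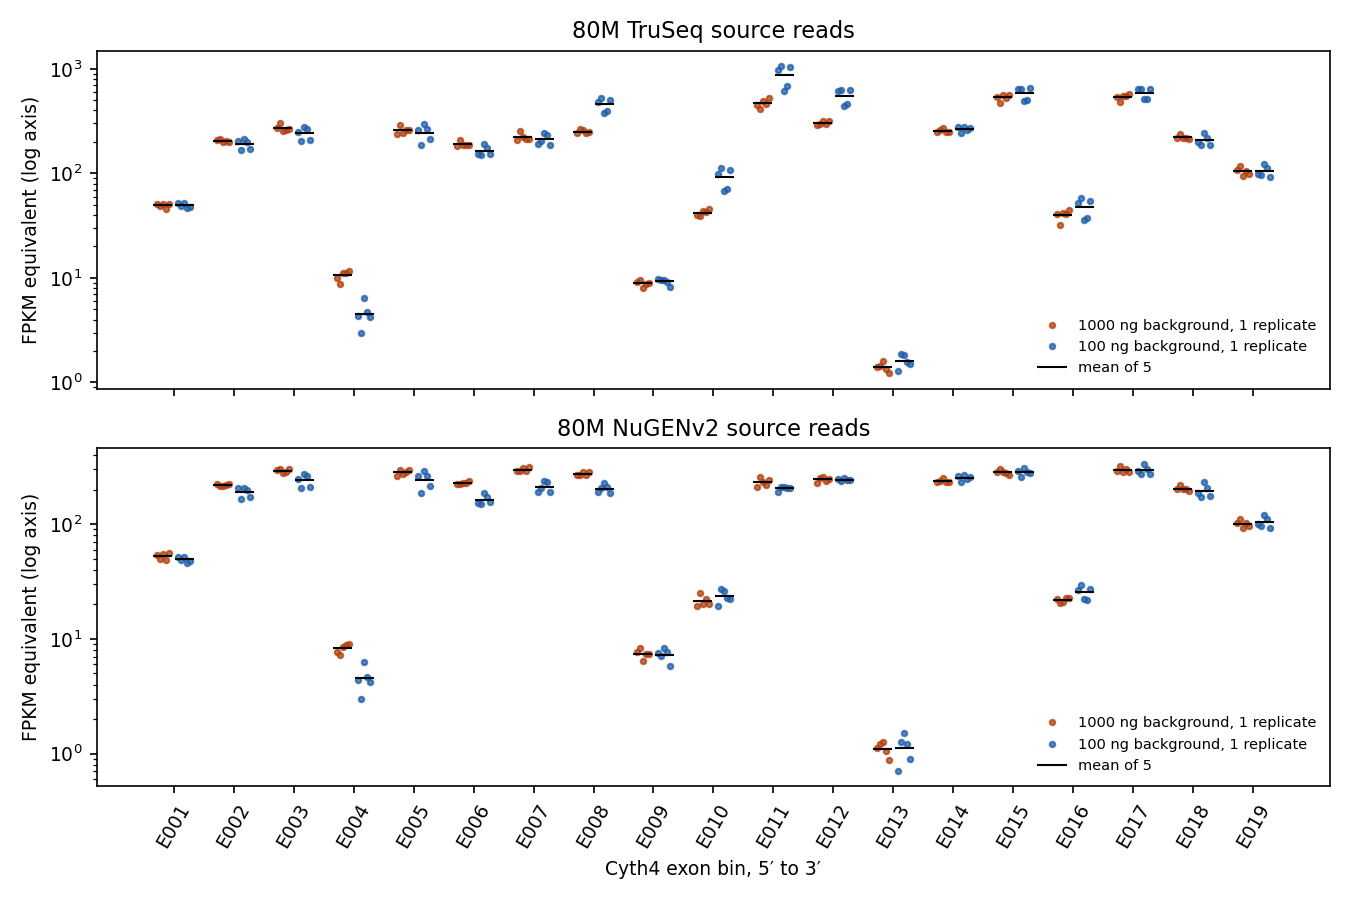
FPKM equivalents (log axis) of the 19 Cyth4 bins with 80M TruSeq (upper panel) and 80M NuGENv2 source reads (lower panel), with 1 point per replicate of the 1000 ng and the 100 ng background and the mean of 5 as a line. With TruSeq reads the 100 ng points of E008, E010, E011 and E012 lie above all 1000 ng points and those of E004 below them. With NuGENv2 reads the 1000 ng points of E002, E003, E004, E006, E007, E008 and E011 lie above all 100 ng points. The share of bins of other genes without overlap is not given.

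In the third stretch, exons 9 to 12 with part of intron 10, the backgrounds gained the same number of TruSeq reads. From 40M to 80M TruSeq reads E015 gained 263 reads in each background, E016 238, E017 227, E014 70 and E018 17. From 20M to 80M NuGENv2 reads E016 gained 114 reads in each, E015 37 and E017 14, E018 gained none, and E014 gained 110 on the 1000 ng background and 109 on the 100 ng background. The gain per length of TruSeq reads was uneven within the stretch. It was 3416 reads per kilobase in E015 and 3153 in E017, against 625 in E014, 356 in E016 and 110 in E018, in both backgrounds.

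E015 held 1027, 1506, 978, 1031 and 898 reads in the 1000 ng replicates with 80M TruSeq reads and 847, 779, 1258, 1106 and 804 in the 100 ng replicates. The scaled means were 533 ± 40.0 FPKM equivalents on the 1000 ng background and 589 ± 81.9 on the 100 ng background (SD, n = 5 each). E017 averaged 539 ± 35.6 on the 1000 ng background and 591 ± 69.0 on the 100 ng background. Neither was called, and the groups overlapped in both bins. With 80M NuGENv2 reads E015 averaged 284 ± 13.6 and 284 ± 17.8, and E017 296 ± 15.3 and 295 ± 25.7, in the 1000 ng and 100 ng backgrounds. With 80M TruSeq reads both means were above those of all other bins that matched annotated exons, of which E012 was the next on each background. The intron bin E011 averaged 468 on the 1000 ng background and 877 on the 100 ng background.

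The kits therefore spread their Cyth4 reads differently along the gene, and not in the same way on the 2 backgrounds. In the 1000 ng background E001 to E007 took 13.9% of the TruSeq gain from 40M to 80M (195 of 1404 reads) and 53.2% of the NuGENv2 gain (564 of 1060 reads). E014 to E018 took 58.0% of the TruSeq gain (815 reads) and 17.3% of the NuGENv2 gain (183 reads). In the 100 ng background the order of the kits in E014 to E018 was reversed over this step. This stretch took 43.6% of the TruSeq gain and 58.0% of the NuGENv2 gain there. E008 to E013 took 56.4% of the TruSeq gain and 42.0% of the NuGENv2 gain in that background, and E001 to E007 took none. Set side by side at 80M, the 1000 ng sample with TruSeq reads held 454 reads fewer than that with NuGENv2 reads in E001 to E007, where 6 bins were lower and E004 was higher. It held 345 reads more in E008 to E013 and 1242 more in E014 to E018. In the 100 ng background TruSeq exceeded NuGENv2 by 2039 reads in E008 to E013 and by 1251 in E014 to E018, and the kits did not differ in E001 to E007 or E019. The library of each kit came from 1 amount of RNA, 100 ng for TruSeq and 2 ng for NuGENv2, so kit and input cannot be told apart.

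At 40M the pattern between kits had the same signs with smaller values. TruSeq minus NuGENv2 was -85 reads in E001 to E007, 264 in E008 to E013 and 610 in E014 to E018 on the 1000 ng background. In the 100 ng background it was 0, 1114 and 617 reads in the 3 stretches. At 20M it was -62, 139 and 308 reads on the 1000 ng background.

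**Figure D4:**
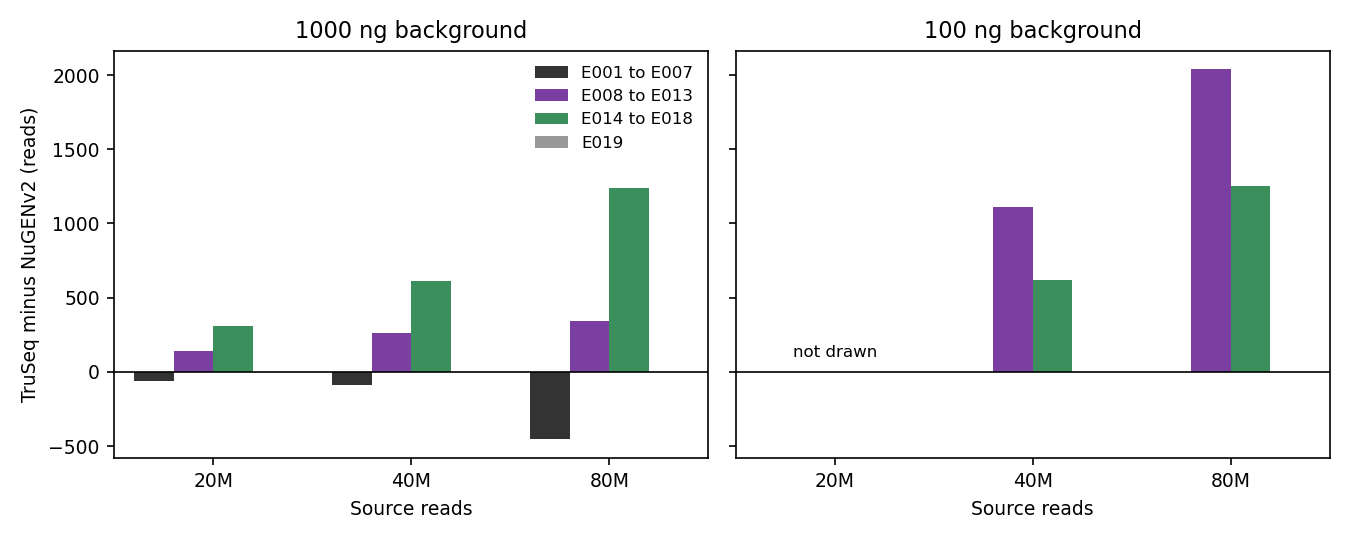
TruSeq minus NuGENv2 reads (y axis) over 4 stretches of Cyth4 bins at 20M, 40M and 80M source reads, on the 1000 ng background (left) and the 100 ng background (right), with the 20M value of the 100 ng background not drawn because that sample stood apart. E001 to E007 lie below 0 on the 1000 ng background and at 0 on the 100 ng background, and E019 is at 0 in both.

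Gains of NuGENv2 reads did not simply follow the number of source reads. The step from 40M to 80M would be 2 times the step from 20M to 40M if they did. In the 1000 ng background TruSeq reads gained 663 and then 1404, a ratio of 2.12, while NuGENv2 reads gained 259 and then 1060, a ratio of 4.09. NuGENv2 reads on the 100 ng background gained 119 and then 312, a ratio of 2.62. Of the NuGENv2 gain on the 1000 ng background, E001 to E007 took 39.8% in the first step and 53.2% in the second. Over all bins NuGENv2 reads gained 5855 and then 17587 on the 1000 ng background, and 6075 and then 17743 on the 100 ng background. TruSeq reads on the 1000 ng background gained 10516 and then 20343 over all bins. A NuGENv2 step of more than 2 times the first was thus not particular to Cyth4.

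Cyth4 as a whole held 13478, 23584, 12176, 13771 and 11292 reads in the 1000 ng replicates with 80M TruSeq reads and 10929, 9973, 20451, 17024 and 9967 in the 100 ng replicates. With 20M NuGENv2 reads it held 11026, 21132, 9724, 11319 and 8840 in the 1000 ng replicates and 7208, 6252, 16730, 13303 and 6246 in the 100 ng replicates. Replicate 2 was the highest on the 1000 ng background and replicate 3 on the 100 ng background, in every table. Cyth4 took 6.90% of the TruSeq reads gained over all bins from 40M to 80M on the 1000 ng background and 4.68% on the 100 ng background. Of the NuGENv2 reads gained from 20M to 80M it took 5.63% on the 1000 ng background and 1.81% on the 100 ng background.

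On the scaled values the total of Cyth4 had a lower mean on the 1000 ng background with 40M and 80M TruSeq reads. With 80M TruSeq reads it was 77.8, 80.5, 77.2, 78.1 and 78.4 FPKM equivalents in the 1000 ng replicates and 91.7, 90.9, 88.6, 85.3 and 89.4 in the 100 ng replicates. The groups did not overlap, and the log2 difference was -0.18. With 40M TruSeq reads it averaged 68.8 ± 2.23 on the 1000 ng background and 75.1 ± 2.33 on the 100 ng background, a difference of -0.12 (SD, n = 5 each). With 80M NuGENv2 reads it averaged 69.3 ± 1.74 on the 1000 ng background and 65.3 ± 5.38 on the 100 ng background (SD, n = 5 each), a difference of 0.09. At 20M and 40M NuGENv2 reads the differences were -0.03 and -0.0053. These totals rest on reads the gene was chosen on and on the scaling: the difference was 0.06 at 40M and 0.02 at 80M TruSeq on the values as deposited, and 0.0028 and -0.03 after quantile normalization.

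**Figure D5:**
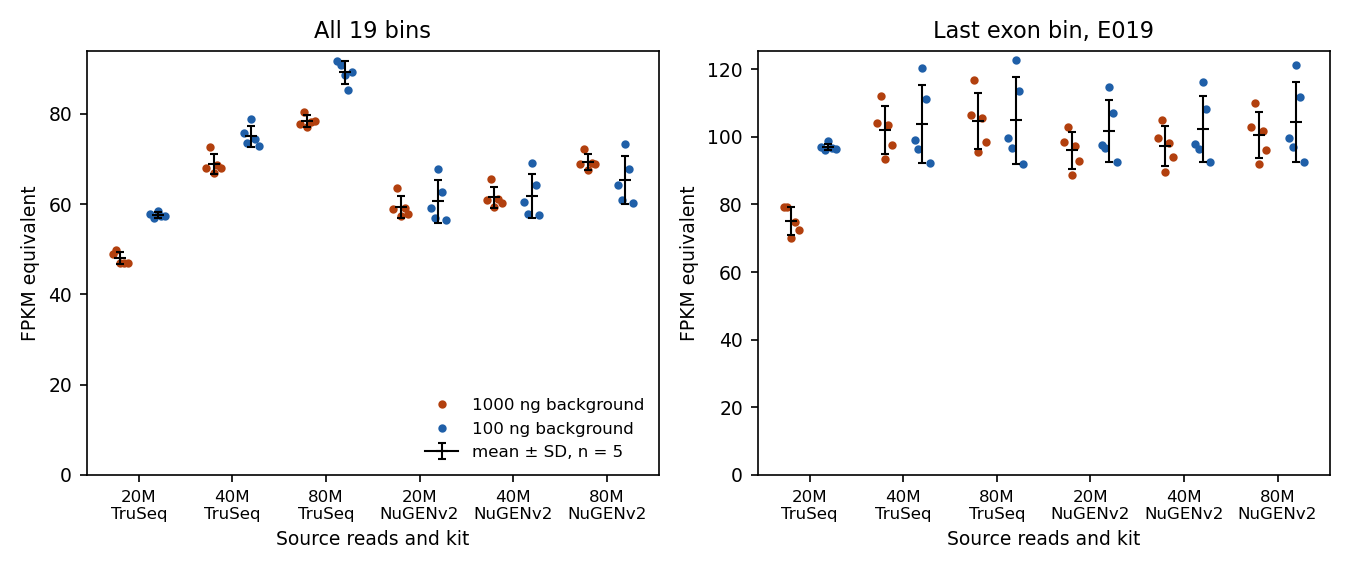
FPKM equivalents per replicate of all 19 Cyth4 bins (left) and of E019 (right) in the 6 tables, with the mean ± SD of 5 replicates for the 1000 ng and the 100 ng background. The total with 80M TruSeq reads lies between 77.2 and 80.5 on the 1000 ng background and between 85.3 and 91.7 on the 100 ng background, while E019 overlaps between backgrounds in every table but that with 20M TruSeq reads.

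Calls per bin used limma on log2(FPKM equivalent + 1) with an adjusted p under 0.05. They are given as a description, since the gene was chosen with these differences known. With 80M TruSeq reads 1 Cyth4 bin of 19 was called higher on the 1000 ng background, E004, and 4 were called higher on the 100 ng background, E008, E010, E011 and E012. Over all 922 bins tested the shares called were 7.92% and 13.4% in these directions. The median log2 fold change of the 19 bins was -0.05, with 9 above 0 and 10 below, and that of all bins was 0.04. With 40M TruSeq reads the same bins were called, 1 in the first direction and 4 in the second, against 6.40% and 10.5% of all bins. The log2 fold changes at 40M TruSeq were 0.52 in E004, -0.55 in E008, -0.86 in E010, -0.75 in E011 and -0.59 in E012. The call of E004 at 40M was kept in 1 of 10 fits that each left out a replicate.

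With 80M NuGENv2 reads 4 Cyth4 bins were called higher on the 1000 ng background and 0 on the 100 ng background, against 5.10% and 7.16% of all bins. They were E004, E006, E007 and E008, with log2 fold changes of 0.77, 0.48, 0.50 and 0.42. At an unadjusted p under 0.05 there were 6 and 0 bins in the 2 directions. The median log2 fold change of the 19 bins was 0.07, with 15 above 0 and 4 below, and that of all bins was 0.0063. E004 and E008 were the bins called with 80M reads of either kit, E004 in the same direction and E008 in opposite directions. With 40M NuGENv2 reads limma called 0 bins in either direction (0 and 0 at an unadjusted p under 0.05), against 2.17% and 2.82% of all bins. With 20M NuGENv2 reads it called 0 and 0 (0 and 1 unadjusted), against 1.19% and 0.759% of all bins. On the values as deposited none of the 4 NuGENv2 calls at 80M was kept and 2 of the 5 TruSeq calls were, E010 and E011. That fit adds 1 to reads per base and does not correct for library size, so it understates changes of low values. After quantile normalization the calls of E006, E007 and E008 with NuGENv2 and of E008 and E012 with TruSeq were lost as well, and with the replicate block those of E006, E007 and E008 with NuGENv2. No called bin at 40M or 80M changed its sign under any alternative run.

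The 100 ng sample with 20M TruSeq reads held 73272 Cyth4 reads more than that with 20M NuGENv2 reads, in every replicate. All 19 bins were higher there, E019 by 27246 reads and E001 to E007 by 16233. E019 took 37.2% of the difference, and it took none of the gains between the other tables. The calls with 20M TruSeq reads, 1 bin higher on the 1000 ng background and 13 higher on the 100 ng background, stood beside 32.6% and 29.7% of all bins called, and the total measured 48.0 ± 1.32 on the 1000 ng background and 57.6 ± 0.576 on the 100 ng background (SD, n = 5 each). These values depend strongly on the scaling: the total difference was -0.26 in log2, against -0.66 with size factors from unchanged bins, -1.19 after quantile normalization and -2.24 on the values as deposited, and under each of these 3 all 19 bins were called higher on the 100 ng background.

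Reads gained in both backgrounds were found in 4 of the 58 gene models from 40M to 80M TruSeq reads. The other 3 were Elp2, a subunit of Elongator, which modifies transfer RNA, Fxyd5, a regulator of the sodium pump, and Ppp2r3a, a regulatory subunit of protein phosphatase 2A. Each of these has a transcript in both lists, while Cyth4 was the 1 model that gained reads on the 100 ng background with no transcript listed for it. The share of the summed gain that fell on the 1000 ng background was 42.9% in Cyth4, 54.2% in Elp2, 64.6% in Fxyd5 and 10.6% in Ppp2r3a, over 1 difference in each background. Bins with the same gain in both backgrounds were not particular to Cyth4. They made up 5 of its 11 bins that gained in both and 23 of 39 such bins in the other 3 models.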

How the data were processed

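For each kit and depth the authors deposited a table of exon bin values, 6 in all, with 10 columns. The deposited values are a coverage signal, whole reads per base of a bin, with no division by library size, except that the fifth 100 ng column is further divided by what was taken to be its library total (16.0 to 16.2, and 201 with 20M TruSeq reads, in 1e6 reads). Bin lengths and that number were inferred from the values, and 100% of values then came out whole within 0.001 reads. Per the submitters' processing notes, STAR, Cuffdiff and mm9 were used, without versions. The way of counting reads in bins was not given in the sources used here. Each table had 1744 rows. Dropping 818 repeats, 1 bin with values that were not finite and 2 bins with no reads left 923.

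Size factors (median of ratios, from bins without a zero) and the fifth column's library total gave FPKM equivalents. limma 3.58.1 in R 4.3.3 (lmFit, eBayes) tested log2(FPKM equivalent + 1) two-sided in 5 against 5 columns, for bins with a mean of at least 1 or of listed models, with Benjamini-Hochberg adjustment. This scale understates the change of low values. NuGENv2 gains did not follow depth, so the background level was tested in the bin without gains, by an exact permutation test. The tests had been planned with kit reads taken off. The script was tested on simulated data. Every Cyth4 bin is described, and the 3 models most like it are those with the nearest share of gain. The members and lists were chosen with earlier results of these data known. Sequences came from the NCBIM37 genome and exons from GENCODE vM1.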

Additional observations from a re-analysis of the deposited data

Results flagged for a closer look

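Among 90 groups of 5 replicates of Cyth4 values, 7 had 1 replicate far from the other 4, by a gap of more than 0.71 of the group's range. Chance gives about 1 in 20 groups if groups are independent. These are not, since the same 5 columns of a background recur in every table and bin, so the number flagged cannot be set against that rate. In 6 of the 7 the replicate was the second of the 1000 ng background, the one with the most Cyth4 reads, and it was the highest. Its total was 63.51 FPKM equivalents with 20M NuGENv2 reads, where the others stood between 57.39 and 59.06, and 65.62 with 40M NuGENv2 reads, where the others stood between 59.39 and 61.13. E018 was at 218.2 with 80M NuGENv2 reads (others 196.2 to 201.9) and at 236.9 with 80M TruSeq reads (others 212.2 to 218.9). With 80M TruSeq reads E006 was at 208.6 (others 182 to 188.5) and E007 at 256.2 (others 210.7 to 220.9). On the 100 ng background with 80M NuGENv2 reads replicate 1 was the lowest in E011, at 191.7 (others 208.2 to 209.8).

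The 100 ng background gained 1871 Cyth4 reads from 40M to 80M TruSeq reads, although its list names no Cyth4 transcript. The 100 ng sample with 20M TruSeq reads held 73272 Cyth4 reads more than that with 20M NuGENv2 reads. The causes were not tested.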

How the results depend on the processing

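Over 19 results with 16 distinct alternatives each, 253 of 304 values kept their direction and their side of the threshold. For the totals and for bins that gained reads the threshold serves as a description only, since the gene was chosen on these reads. Scaling moved the results most, and the causes were not tested. The fit on the values as deposited adds 1 to reads per base, which understates changes of low values, and has no correction for library size. On the values as deposited without the fifth 100 ng column, the total difference was 0.1297 and 0.1395 at 20M and 40M NuGENv2, 0.05837 and 0.0208 at 40M and 80M TruSeq, and that of E019 was 0.1144. The bins called higher in the 1000 ng background were then 0 at 80M NuGENv2 and 0 at 20M, 40M and 80M TruSeq, and those called higher in the 100 ng background were 0 at 40M and 2 at 80M TruSeq. After quantile normalization the total difference was 0.06333 and 0.07686 at 20M and 40M NuGENv2, 0.002842 and -0.02893 at 40M and 80M TruSeq, and that of E019 was 0.02914. Bins called higher in the 1000 ng background were 1 at 80M NuGENv2 and 0 at 20M TruSeq, and those higher in the 100 ng background were 1 at 40M and 2 at 80M TruSeq. At 20M TruSeq the total difference was -2.239 as deposited, -1.192 after quantile normalization and -0.6574 with size factors from unchanged bins, against -0.2597. Size factors from unchanged bins gave 0 bins higher in the 1000 ng background at 20M and 40M TruSeq. At 40M TruSeq the total difference was -0.125 with a pseudocount of 0.1 and -0.1337 without the fifth 100 ng column. Both fell on the other side of the threshold from the main fit. Leaving out that column, the same fit as without replicate 5 of that background, also left 0 bins higher in the 1000 ng background. With the replicate block 1 bin was called higher in the 1000 ng background at 80M NuGENv2 and 0 at 20M and 40M TruSeq. The total difference with the block was -0.1234 at 40M and -0.1833 at 80M TruSeq, both on the other side of the threshold from the main fit. The labels number no replicates, and deviations of same-numbered columns correlated by -0.38 to 0.09 with 20M NuGENv2 reads. Whether such columns share more than a number is not known.

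Leaving out each replicate in turn gave total differences of -0.05311 to 0.01173 at 20M NuGENv2, -0.02997 to 0.0349 at 40M NuGENv2 and -0.1427 to -0.106 at 40M TruSeq. At 40M TruSeq 9 of 10 of these totals fell on the other side of the threshold from the main fit. There 0 to 1 bins were called higher in the 1000 ng background. Over all bins tested, calls higher in the 1000 ng background at 80M NuGENv2 were 47 in the main fit, 8 as deposited and 23 with the block; at 80M TruSeq they were 73 in the main fit and 35 as deposited, and those higher in the 100 ng background were 124 and 55. Taking kit reads off with the TruSeq tables was not run, and bins without gains are the result given. It was NuGENv2 gains that did not follow depth, while TruSeq gains on the 1000 ng background had a ratio of 2.12. On the 100 ng background the first TruSeq step involves the sample that stood apart. Bins with few reads, such as E013 and E010, are measured least precisely.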
